A study of Mus musculus with 8 samples.

Results

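The lysyl oxidases and the enzymes and enhancers that trim procollagen were followed in the palatal shelves of mouse embryos that carry Pax3 at the Rosa26 locus. The members are the 10 genes Lox, Loxl1, Loxl2, Loxl3, Loxl4, Bmp1, Pcolce, Pcolce2, Adamts2 and Adamts3, and every probe set annotated with exactly 1 of these symbols was taken. This gave 8 of the 10 genes, of 18193 named on the array, with 16 of its 45037 probe sets. Loxl2 occurred on 2 probe sets that also carry a second symbol, and no probe set carried Adamts2, so neither is described further. Of the 16 probe sets, 12 from 8 genes were bright enough to be tested.

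The arrays compare palatal shelves of embryonic day 14.5 from R26Pax3/Pax3 embryos and from wild type littermates, with 4 samples of each genotype on 8 arrays. Both groups come from a cross of C57BL/6 and SV129 mice. R26Pax3 is an allele that places Pax3, a paired-box transcription factor, at Rosa26, a locus used for inserted genes. The labels name no line that drives expression of the allele, do not say which cells express it, and do not say whether embryos were pooled. The p-values therefore rest on the spread among these arrays, which may be in part technical.

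Fibrillar collagens are secreted as procollagens with a propeptide at each end. Bmp1, a metalloproteinase, removes the C-propeptide, and the Pcolce proteins bind that propeptide and speed the cut. Adamts2 and Adamts3 remove the N-propeptide. The trimmed molecules assemble into fibrils, in which the copper-dependent lysyl oxidases oxidise lysines of collagen and elastin to start cross-links. Bmp1 also activates the precursor of Lox, so both steps meet in 1 enzyme. Collagen of this kind makes up much of the matrix in the shelf mesenchyme and in the bone that forms in it.

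Signals are MAS5 intensities, a linear scale on which each array is brought to a common overall level. The median signal of an array lay between 43.5 and 44.9. Values below it are treated here as possibly background, since background was not measured and detection calls were not used. The filter for testing lay lower, at a mean signal of 25.4, so some tested probe sets read below the array median. Differences are R26Pax3/Pax3 minus wild type on the scale log2(signal + 16), with the standard error (SE) and the Benjamini-Hochberg adjusted p of limma over 27021 probe sets. Levels of different probe sets are not set against each other.

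On 2 of its 3 probe sets Pax3 matched the labels. It read 532 to 722 in R26Pax3/Pax3 and 142 to 176 in wild type on its brightest probe set, without overlap. A second probe set of Pax3 was also higher without overlap, while the remaining one read 66 to 113 against 82.1 to 111, so the groups overlapped there. The mean of that remaining probe set was lower in R26Pax3/Pax3, at 82.5 against 103. All 10 markers of palatal mesenchyme, among them Osr2, Shox2 and Meox2, lay above the array median on all 8 arrays. Their summed signal was 10041 to 10905 in R26Pax3/Pax3 and 10068 to 10997 in wild type, so these ranges overlapped. The first 4 and the last 4 arrays in order of deposition each hold 2 of each genotype. The leading principal component, which held 21.8% of the variance, lay between -27.1 and -6.95 in the first set and between 3.34 and 28.2 in the last, so differences of the members within each set are given below. What this order stands for is not given in the labels.

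No member was called. Over the whole array limma called 4 of 27021 probe sets at an adjusted p under 0.05, a share of 0.0148%, and among the 12 member probe sets there were 0, with adjusted p-values from 0.683 to 1.000. The calls over the array include the Pax3 probe sets 1420389_at and 1430335_a_at (limma adjusted p = 1.7e-05 and 0.00011). At an unadjusted p under 0.05 there were 4 member probe sets, of Lox, Pcolce and both of Loxl4, all lower in R26Pax3/Pax3, where 2.44% of all probe sets were lower at that threshold. The mean difference was below 0 for 11 of the 12 tested probe sets, which hold all 8 genes, beside 49.7% of all probe sets. It was below 0 for 13 of all 16. The median over the 12 was -0.19, and over all probe sets tested it was 0.00093. These genes were chosen with earlier results of these data known, and probe sets of 1 gene and genes of 1 tissue do not vary independently, so the counts describe these arrays and are no test.

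**Figure D1:**
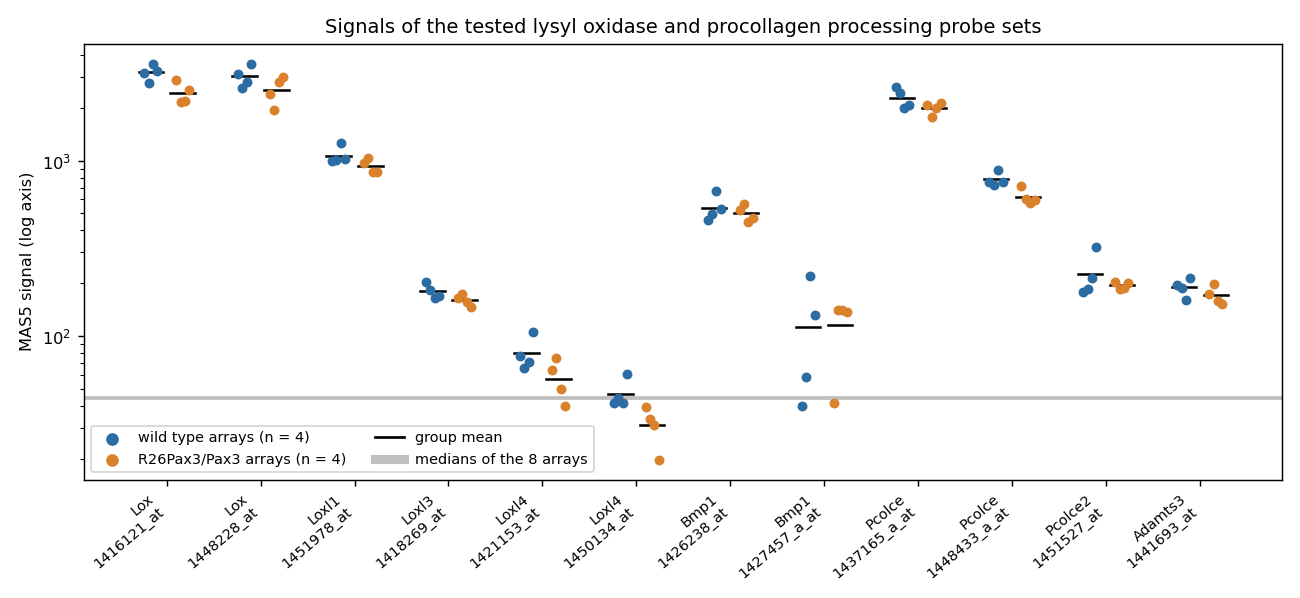
Signals of the 12 tested probe sets on each array, on a log axis, with blue points for the 4 wild type arrays, orange points for the 4 R26Pax3/Pax3 arrays, a black line for each group mean and a grey band for the medians of the 8 arrays. The groups are fully apart only for Pcolce 1448433_a_at and Loxl4 1450134_at, and the latter lies at the grey band.

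Lox, the founding lysyl oxidase of collagen and elastin, was read brightly by both of its tested probe sets, which the annotation ties to the same sequence record. On probe set 1416121_at the R26Pax3/Pax3 arrays 1, 3, 4 and 7 read 2889, 2150, 2174 and 2525. The wild type arrays 2, 6, 8 and 11 read 3543, 3148, 2767 and 3260 on it. All R26Pax3/Pax3 arrays but array 1 lay below the lowest wild type array. The means were 2435 ± 348 and 3180 ± 321 (SD, n = 4 each), a log2 difference of -0.39 (SE 0.105, limma adjusted p = 0.683). Among the first 4 arrays deposited the difference was -0.24, and among the last 4 it was -0.53.

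The second Lox probe set, 1448228_at, read 2407, 1943, 2794 and 3013 in R26Pax3/Pax3 arrays 1, 3, 4 and 7. In wild type arrays 2, 6, 8 and 11 it read 2799, 3099, 2600 and 3562. Here arrays 4 and 7 lay inside the wild type range, so the groups overlapped more than on the first probe set. The log2 difference was -0.26 (SE 0.133, limma adjusted p = 1.000), with -0.39 in the first 4 arrays and -0.12 in the last 4. Without R26Pax3/Pax3 array 3 it was -0.13. The remaining probe set of Lox read 8.3 to 20.6 on all arrays, below their medians, and was not tested. In these dissected shelves, fewer cells that express a gene and less of its RNA per cell cannot be told apart.

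Loxl1, the family member best known for elastic fibres, read 973, 1038, 858 and 856 in R26Pax3/Pax3 arrays 1, 3, 4 and 7 on probe set 1451978_at. Wild type arrays 2, 6, 8 and 11 read 1254, 989, 1004 and 1024. Array 3 of R26Pax3/Pax3 lay above 3 of the wild type arrays, and the highest value of all was wild type array 2. The log2 difference was -0.19 (SE 0.0976, limma adjusted p = 1.000). It was 0.01 within the first 4 arrays and -0.40 within the last 4, so the lower mean came from the last 4. The other Loxl1 probe set, at 11.3 to 43.2, stayed below the array medians.

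Loxl3, a lysyl oxidase-like enzyme whose loss in mice causes cleft palate, read 164.6, 173, 157 and 146 in R26Pax3/Pax3 arrays 1, 3, 4 and 7. In wild type arrays 2, 6, 8 and 11 its probe set, 1418269_at, read 165.0, 202, 183 and 169. Array 3 of R26Pax3/Pax3 lay inside the wild type range and the other 3 below it. The log2 difference was -0.15 (SE 0.102, limma adjusted p = 1.000), with a 95% interval from -0.37 to 0.07. The first 4 arrays gave -0.17 and the last 4 gave -0.13.

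Loxl4, another member of the family, was dim on both probe sets. Probe set 1421153_at read 64, 75.2, 49.6 and 39.7 in R26Pax3/Pax3 arrays 1, 3, 4 and 7, and 71.2, 76.5, 65.6 and 105.7 in wild type arrays 2, 6, 8 and 11. Only array 3 of R26Pax3/Pax3 reached into the wild type range. The log2 difference was -0.40 (SE 0.180, limma adjusted p = 1.000), with -0.02 in the first 4 arrays and -0.77 in the last 4. The latter value rests in part on R26Pax3/Pax3 array 7, which lay under its array median of 44.4, so its size is uncertain. On 1450134_at the R26Pax3/Pax3 arrays read 39.6, 33.5, 30.9 and 19.7, and the wild type arrays 41.3, 41.7, 44.2 and 60.6. The groups did not overlap there, but all 4 R26Pax3/Pax3 values and 2 of the wild type values were under the median of their own array, so no size is given.

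Pcolce, the enhancer of C-propeptide removal, was the one member whose groups were apart on a bright probe set. On 1448433_a_at the R26Pax3/Pax3 arrays 1, 3, 4 and 7 read 713, 608, 574 and 599. The wild type arrays 2, 6, 8 and 11 read 887, 753, 725 and 756. All 4 R26Pax3/Pax3 arrays lay below the lowest wild type array, by a narrow margin for array 1. The means were 623 ± 61.2 and 780 ± 72.3 (SD, n = 4 each), a log2 difference of -0.32 (SE 0.0934, limma adjusted p = 0.809). Over the array the groups lay apart in this direction on 1.34% of probe sets, and among the members on 2 of 12.

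The brighter Pcolce probe set, 1437165_a_at, differed from it. It read 2079, 1763, 1987 and 2132 in R26Pax3/Pax3 arrays 1, 3, 4 and 7 and 1981, 2623, 2427 and 2079 in wild type arrays 2, 6, 8 and 11. Array 3 alone lay below all wild type arrays. The log2 difference was -0.19 (SE 0.0986, limma adjusted p = 1.000). It was -0.40 in the first 4 arrays and 0.02 in the last 4, while for 1448433_a_at these were -0.16 and -0.47. The fainter probe set was thus lower in both sets of arrays, and the brighter one in the first set alone.

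Bmp1, the proteinase that Pcolce assists, read 524, 564, 447 and 469 in R26Pax3/Pax3 arrays 1, 3, 4 and 7 on its brightest probe set, 1426238_at. The wild type arrays 2, 6, 8 and 11 read 667, 461, 498 and 530. The groups overlapped almost wholly, and the log2 difference was -0.09 (SE 0.118, limma adjusted p = 1.000, 95% interval -0.35 to 0.16). It turned from 0.18 within the first to -0.37 within the last 4 arrays. On 1427457_a_at the signal was 41.4 in R26Pax3/Pax3 array 1 and 138 to 141 in arrays 3, 4 and 7. In wild type arrays 2, 6, 8 and 11 it read 219, 40, 58.2 and 131. The low values thus occurred in both genotypes, in 3 of the first 4 arrays deposited. That probe set varied more between arrays of 1 genotype than any other tested member, with a coefficient of variation of 72.6% in wild type, and its log2 difference was 0.15 (SE 0.432, limma adjusted p = 1.000). The remaining Bmp1 probe set, at 2.4 to 20.4, was not tested.

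Pcolce2, the second enhancer protein, read 204, 186, 187 and 200 in R26Pax3/Pax3 arrays 1, 3, 4 and 7. Wild type arrays 2, 6, 8 and 11 read 216, 179, 185 and 322 on this probe set, 1451527_at. No R26Pax3/Pax3 array lay below the lowest wild type array, and wild type array 11 was far above the rest. The log2 difference of -0.16 (SE 0.155, limma adjusted p = 1.000) became 0.01 without wild type array 11.

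Adamts3, an N-propeptidase of procollagen, read 174, 197, 159 and 152 in R26Pax3/Pax3 arrays 1, 3, 4 and 7 and 161, 194, 187 and 215 in wild type arrays 2, 6, 8 and 11 on 1441693_at. The ranges overlapped, and the log2 difference was -0.14 (SE 0.116, limma adjusted p = 1.000). Its second probe set read at most 16.2 and was not tested.

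**Figure D2:**
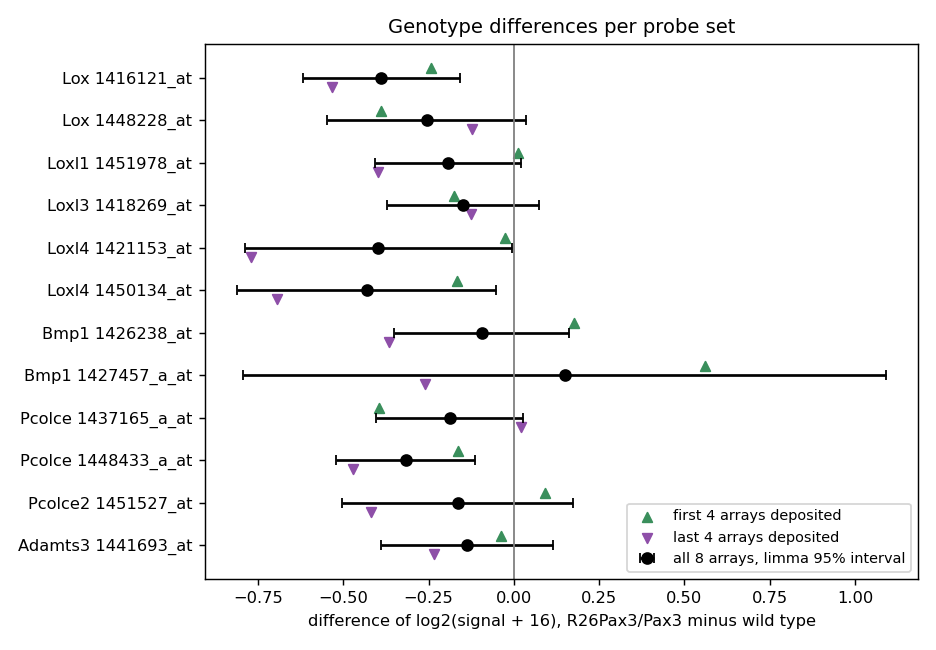
Log2 differences of the 12 tested probe sets, R26Pax3/Pax3 minus wild type, as black points with limma's 95% intervals, and the same difference within the first 4 (green) and last 4 (purple) arrays deposited. The intervals of 8 probe sets hold 0, and 5 probe sets have opposite signs in the 2 sets of arrays.

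The members did not follow the arrays alike. The difference was below 0 within both sets of deposited arrays for 7 of the 12 probe sets, from 5 genes, beside 21.9% of all probe sets. R26Pax3/Pax3 arrays 4 and 7 lay below a probe set's mean over the 8 arrays on 10 and 9 of the 12, with median deviations of -0.18 and -0.16. Arrays 1 and 3 did so on 8 and 6, with -0.03 and -0.05. In wild type the count was 2 for array 11, 3 for array 2, 4 for array 6 and 5 for array 8, and the median deviation ran from 0.01 in array 8 to 0.24 in array 11. The median of the members was thus lowest in the R26Pax3/Pax3 arrays of the last set and highest in a wild type array of that set.

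Promoter sequences of RefSeq (GRCm38.p6) were matched for 5 of the 10 members, and the 2 whose groups did not overlap on a probe set, Pcolce and Loxl4, are shown to compare their start regions. Each runs from 250 bases before to 50 bases after a start site. The Pcolce window is chr5:137611355-137611654 and the Loxl4 window chr19:42612757-42613056, both on the minus strand, and capitals mark matches on either strand to TAAT, the core that the homeodomain of Pax3 binds, and to GGGCGG, the GC box.
Pcolce: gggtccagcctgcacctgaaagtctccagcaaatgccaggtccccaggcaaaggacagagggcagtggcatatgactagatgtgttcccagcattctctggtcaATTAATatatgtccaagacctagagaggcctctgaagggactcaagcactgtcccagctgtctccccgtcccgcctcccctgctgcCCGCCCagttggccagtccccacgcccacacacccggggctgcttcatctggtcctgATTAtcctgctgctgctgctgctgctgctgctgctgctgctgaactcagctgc
Loxl4: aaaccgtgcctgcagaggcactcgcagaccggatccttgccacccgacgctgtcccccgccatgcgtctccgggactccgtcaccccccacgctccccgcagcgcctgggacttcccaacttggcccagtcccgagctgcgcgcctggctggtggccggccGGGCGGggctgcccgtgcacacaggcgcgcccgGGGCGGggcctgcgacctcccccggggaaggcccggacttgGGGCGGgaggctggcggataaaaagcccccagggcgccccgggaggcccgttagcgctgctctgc
The Pcolce window held 3 matches to TAAT, starting 146, 144 and 3 bases before the start site, of which the first 2 overlap. It held 1 GC box, 60 bases before the start site. The Loxl4 window held 3 GC boxes, 89, 56 and 15 bases before the start site, with TAAT absent from it. Neither window held the TATA box, TATAAA. Of 32851 promoter windows, 58.0% held TAAT, 35.7% held GGGCGG and 13.6% held TATAAA. Guanine and cytosine made up 59.3% of the Pcolce and 75.0% of the Loxl4 window, with a median of 52.7% over all windows. These matches are of letters and do not show binding.

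Lox was next set beside the collagen chains that it cross-links. For each array the mean log2 value of Col1a1, Col1a2 and Col3a1, on the brightest probe set of each, was subtracted from that of Lox. This quantity was -1.66, -1.95, -1.72 and -1.56 in R26Pax3/Pax3 arrays 1, 3, 4 and 7, and -1.55, -1.50, -1.51 and -1.50 in wild type arrays 2, 6, 8 and 11. The wild type arrays lay close together and all R26Pax3/Pax3 arrays lay below them, array 7 by little. The means were -1.72 ± 0.164 and -1.51 ± 0.0232 (SD, n = 4 each), a difference of -0.21 (two-sided exact permutation p = 0.0286, the smallest that 70 regroupings allow). The chains differed by -0.17 on average, and Lox by -0.39. With every probe set of these genes past the filter in place of the brightest, the difference was -0.10 (exact permutation p = 0.486), with quantile normalization it was -0.19 (exact permutation p = 0.114), and without R26Pax3/Pax3 array 3 it was -0.14. The test was chosen with the lower Lox signal known. The Col1a2 probe set read 10138 ± 1197 and 11082 ± 1312, near the array maxima of 10932 to 14153, and whether such signals are compressed was not tested.

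**Figure D3:**
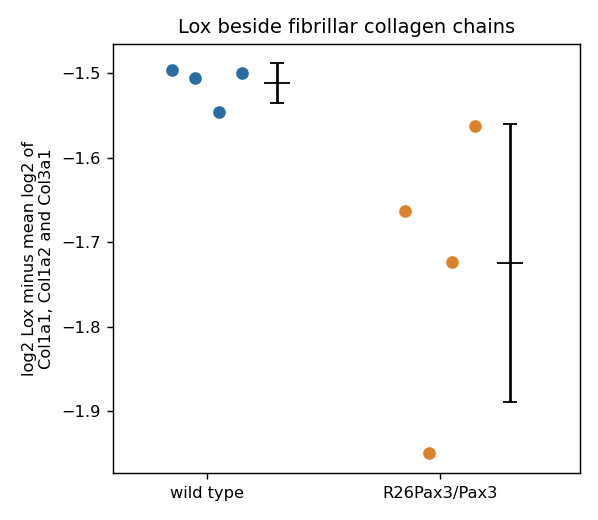
Log2 signal of Lox minus the mean log2 signal of Col1a1, Col1a2 and Col3a1 on each of 4 wild type and 4 R26Pax3/Pax3 arrays, with the group mean and SD beside the points. Wild type arrays lie between -1.55 and -1.50 and R26Pax3/Pax3 arrays between -1.95 and -1.56.

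Further genes of collagen maturation were read on 1 probe set each, the brightest. Of 82 genes in 6 lists, 68 were tested, of which 57 had a lower and 11 a higher mean in R26Pax3/Pax3. Over the array 49.7% of probe sets had a lower mean. None of the 68 was called in limma. An unadjusted p under 0.05 occurred for 23, 20 lower and 3 higher, beside 4.86% of all probe sets in either direction. The groups lay apart in the lower direction on 1.34% of all probe sets. Most genes named below were picked for the smallest p of their list, which favours groups that do not overlap.

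Of 18 tested enzymes and chaperones that fold and hydroxylate collagen, 17 had a lower mean, with a median log2 difference of -0.18 and 0 called. P4ha2 and P4ha1, the catalytic chains of prolyl 4-hydroxylase, read 501 ± 58.7 against 716 ± 76.4 and 565 ± 13.8 against 755 ± 105, log2 differences of -0.50 and -0.40 (limma adjusted p = 0.403 and 0.556). The groups did not overlap for either on these probe sets. On the second P4ha1 probe set, 1426519_at, the groups overlapped. The log2 difference there was -0.25, with -0.07 in the first 4 arrays and -0.43 in the last 4. P3h1, the prolyl 3-hydroxylase of fibrillar collagen, had -0.29 (limma adjusted p = 0.964).

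Of 11 fibrillar collagen chains, 10 had a lower mean, with a median of -0.15 and 0 called. Col11a1 and Col11a2, chains of the type XI collagen that sits in thin fibrils, had log2 differences of -0.38 and -0.66 without overlap between groups (limma adjusted p = 0.470 and 0.497). On the second Col11a1 probe set, 1449154_at, the groups overlapped and the log2 difference was -0.33. Col1a1, the main chain of type I collagen, had -0.33, made up of 0.01 in the first 4 arrays and -0.67 in the last 4. Col5a3 was the 1 chain with a higher mean, at 56.7 ± 5.72 against 42.3 ± 4.72, near the array median. Its groups did not overlap either, and its difference was above 0 in both sets of deposited arrays. But 3 wild type values were under the median of their array, so no size is given. This gene was named after its values were seen.

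Listed as further substrates of Bmp1, a role not tested here, were 13 tested genes. Of these, 11 had a lower mean, with a median of -0.23 and 0 called. They include Lum, a proteoglycan of collagen fibrils (3158 ± 294 against 4030 ± 271, log2 difference -0.35, limma adjusted p = 0.525), Hspg2, the basement membrane proteoglycan perlecan (-0.33), and Dmp1, a matrix protein of bone (-0.78). Of 12 elastic fibre genes and other partners of lysyl oxidases, 8 had a lower and 4 a higher mean, with a median of -0.11 and 0 called. Ltbp2, a microfibril protein, read 79.5 ± 8.95 against 139 ± 27.8 without overlap, a log2 difference of -0.69 (limma adjusted p = 0.368). Eln, elastin itself, had -0.34, with 0.06 in the first 4 arrays and -0.73 in the last 4, and Ccn2, a matricellular protein, had 0.33.

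Lysyl oxidases need copper, and of 9 tested genes of copper uptake and transport 8 had a lower mean, with a median of -0.08, 0 called and 0 at an unadjusted p under 0.05. The copper importer Slc31a1 had -0.17, its relative Slc31a2 -0.15, and the copper chaperone Ccs -0.08. The list of further procollagen proteinases also held proprotein convertases and a secreted serine protease, and whether these cut procollagen was not tested. Of its 5 tested genes, 3 had a lower and 2 a higher mean, with a median of -0.03 and 0 called. That median turned to 0.06 without wild type array 8 and was -0.17 without wild type array 2, so its sign is not settled. Pcsk6, a proprotein convertase, read 250 ± 27.5 against 358 ± 58.2 without overlap, a log2 difference of -0.49 (limma adjusted p = 0.573). Htra1, a secreted serine protease, had -0.27. Tll1, a close relative of Bmp1, read 36.4 ± 13.2 against 23.0 ± 7.41, below the array median on all 4 wild type arrays, so no size is given.

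**Figure D4:**
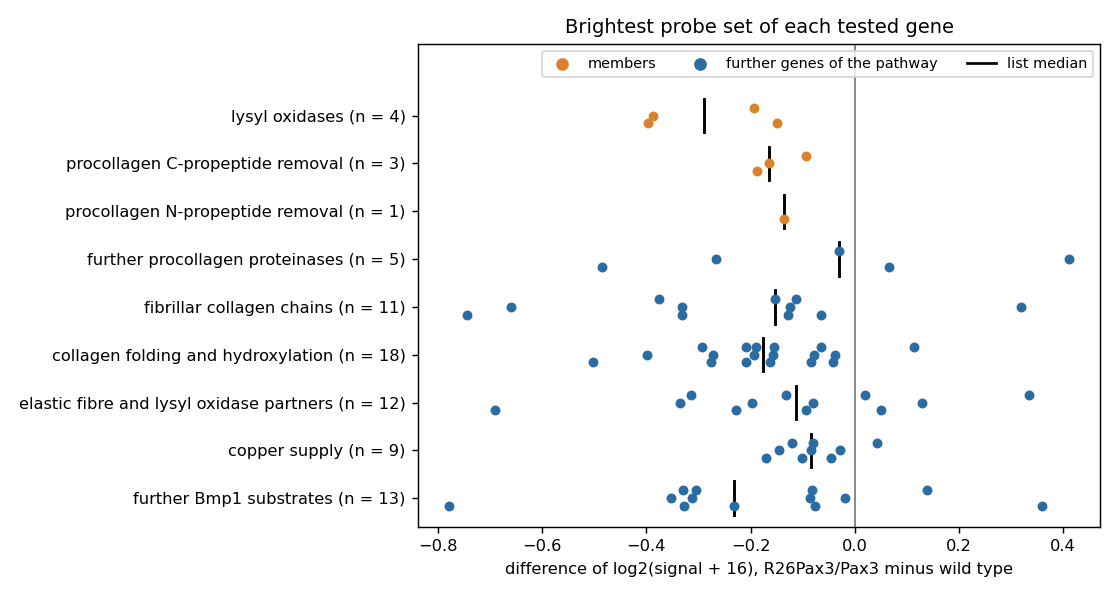
Log2 differences, R26Pax3/Pax3 minus wild type, of the brightest probe set of each tested gene, with members in orange, further genes of the pathway in blue and a black line at each list's median. The medians run from -0.29 in lysyl oxidases to -0.03 in further procollagen proteinases. The latter lay between -0.17 and 0.06 with 1 array left out. The former rests on 4 genes, among them the dim Loxl4 and Lox, which had -0.39 here and -0.26 on its second tested probe set.

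Markers of other cell types differed between arrays beside these genes. All 7 osteoblast markers tested, of 10 listed, among them Sp7, Alpl and Ifitm5, had a lower mean in R26Pax3/Pax3. Their summed signal was 7294 to 8543 there and 8402 to 10927 in wild type, 0 of 7 were called, and none was listed at 0. Ibsp made up most of this sum and had a log2 difference of -0.09, while the mean over the 7 was -0.41. The groups did not overlap for Ifitm5 (-0.55) and Dlx5 (-0.26) and overlapped for the others, where 1.34% of all probe sets lay apart in this direction. Dmp1 is in this list and among the genes listed as Bmp1 substrates. Of 7 chondrocyte markers, 5 had a lower mean, and their sum was 707 to 1807 against 989 to 2531. Of 9 epithelial markers, 7 had a higher mean, with sums of 4807 to 6669 against 4386 to 5308. All 8 tested skeletal muscle markers had a lower mean, with sums over 9 of 846 to 5983 against 2707 to 6780. The lowest sum was that of R26Pax3/Pax3 array 7, while arrays 1, 3 and 4 had 2914, 4787 and 5983. All 7 neuronal markers had a higher mean, with sums of 1015 to 1700 against 474 to 1797. Wild type arrays 2 and 11 had neuronal sums of 474 and 498, and wild type arrays 6 and 8 had 1797 and 1017. R26Pax3/Pax3 array 7 and wild type arrays 2 and 11 all belong to the last 4 deposited. The summed signals of endothelial, erythroid, macrophage and smooth muscle markers also overlapped between genotypes. Single markers higher in R26Pax3/Pax3 without overlap between groups were Sfn, of the epithelial list, and Tagln, of the smooth muscle list. Their log2 differences were 0.56 and 0.87 (limma adjusted p = 0.368 for each), and both were named after their values were seen. The part of these cell types in the differences of the lysyl oxidases and Pcolce was not tested.

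The genes whose array pattern was nearest to that of Lox 1416121_at were found by the mean absolute difference over the 8 arrays, after each probe set was centred on its own mean. They were Masp1, a serine protease of the lectin pathway of complement (0.0476), Rnf144b, a ubiquitin ligase (0.0495), Hacd4, of fatty acid elongation (0.0561), P3h1 (0.0639) and Lum (0.0675), in log2 units. The median over all tested probe sets with 1 symbol, other than those of Lox, was 0.248. Among the members Pcolce 1448433_a_at was nearest, at 0.0768, and it ranked 12th of all tested probe sets. The second Lox probe set was at 0.196, ranked 4475, and the brighter Pcolce probe set, 1437165_a_at, at 0.201, ranked 5193, so only 1 of the Pcolce probe sets lay nearer to it than the other probe set of Lox itself. The points share array, dissection and scaling, and a small distance among so many probe sets can arise without any relation.

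**Figure D5:**
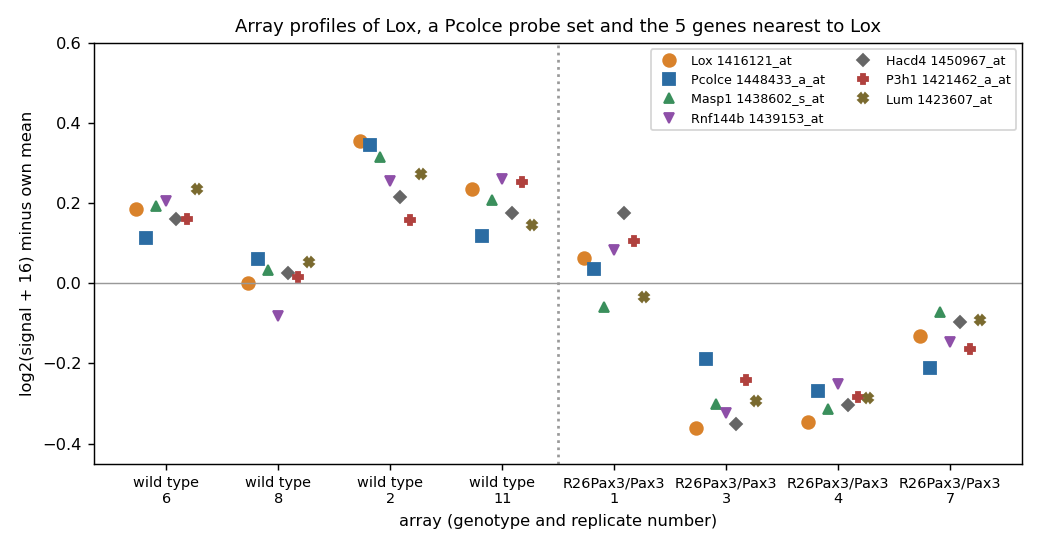
Log2(signal + 16) minus its own mean over the 8 arrays, for Lox 1416121_at, Pcolce 1448433_a_at and the 5 genes nearest to Lox, with wild type arrays left and R26Pax3/Pax3 arrays right of the dotted line. Arrays 3 and 4 of R26Pax3/Pax3 are low for all 7 probe sets, at -0.36 and -0.35 for Lox, and wild type array 2 is high, at 0.35 for Lox.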

How the data were processed

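Per the labels, total RNA was extracted with Trizol and 6 µg of it was made into biotinylated cRNA. Per the submitters' processing notes, the authors made the signal intensities with MAS5, whose version is not given in the sources used here. Here 64 control probe sets were dropped, and a probe set was tested only if its mean signal exceeded the 40th percentile of all means, which 27021 did. Values were log2(signal + 16) with no further normalization, so fold changes of dim genes are understated. The genotype difference was fitted in limma 3.58.1 under R 4.3.3 (lmFit, eBayes with an intensity trend, no covariates), with Benjamini-Hochberg adjustment and calls at an adjusted p under 0.05. Exact permutation tests used scipy 1.17.1. The procedure was tested on simulated data. The number of arrays limits the precision.

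Samples were grouped by genotype in their titles. The members, lists and tests were chosen with earlier results of these data known. Named are all members, the 3 genes of smallest p in each list, the 5 genes nearest to Lox, the collagen chains and markers set beside a result, and Pax3. Symbols come from the annotation of the array. Alternatives were other pseudocounts, filters, normalization and variance models, deposition order as a block, and each array left out. Detection calls were not used here.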

Additional observations from a re-analysis of the deposited data

Results flagged for a closer look

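In 32 groups of 4 arrays (16 probe sets in each genotype), 3 held an array whose gap to the nearest other was a larger share of the group's range than Dixon's 95% limit, which chance passes in about 1 of 20 groups. For Bmp1 1427457_a_at, R26Pax3/Pax3 array 1 read 41.4 and arrays 3, 4 and 7 read 138 to 141, but wild type arrays 6 and 8 read 40 and 58.2 on it, so a low value was not peculiar to that array. For Loxl1 1451978_at, wild type array 2 read 1253.8, while the others lay between 989 and 1024. For Loxl4 1450134_at, wild type array 11 read 60.6 and the next 44.2, near the array median.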

How the results depend on the processing

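No paired analysis was made, because the labels give neither litter nor pairing and the genotypes share no replicate number. Litter is thus not accounted for in any p-value. The 12 member differences were recomputed 202 times over 17 settings. No member was called in any setting with a test, and 193 values kept their sign. The other 9 changed sign. Changing the filter, the intensity trend or the block for deposition order cannot alter a difference in this balanced design. The values from those settings therefore kept their sign by construction and are no check of it. Leaving out 1 array turned the difference of Bmp1 1427457_a_at (-0.17 to 0.52 over the 8 arrays left out), of Bmp1 1426238_at (-0.16 to 0.0099) and of Pcolce2 (-0.26 to 0.0097). Other differences kept their sign but moved without 1 array, to -0.13 for Lox 1448228_at (R26Pax3/Pax3 3), -0.11 for Loxl1 (wild type 2), -0.10 for Loxl3 and -0.12 for Pcolce 1437165_a_at (wild type 6) and -0.08 for Adamts3 (wild type 11). List medians moved for fibrillar chains (to -0.24 without R26Pax3/Pax3 1 or 3), further Bmp1 substrates (to -0.15 without R26Pax3/Pax3 7 or wild type 2) and further procollagen proteinases (-0.17 to 0.06, and -0.15 with the stricter filter). Within the first 4 arrays deposited the difference turned for Loxl1 (0.011), Bmp1 1426238_at (0.18) and Pcolce2 (0.091), and within the last 4 for Bmp1 1427457_a_at (-0.26) and Pcolce 1437165_a_at (0.020). The median over members lay between -0.23 and -0.17 when 1 array was left out. The calls over the whole array lay between 4 and 9, with 9 without R26Pax3/Pax3 array 3. The difference of Lox beside the collagen chains kept its sign but missed the threshold with quantile normalization (-0.19) and with all probe sets (-0.10). With 1 array left out it lay between -0.27 and -0.14, where 7 arrays allow no exact p below 0.0571. The cause was not tested. Signals at the array median limit what can be said of Loxl4.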
